A study of Mus musculus with 1019 samples.

Results

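A part of the mouse spleen cells sorted as regulatory T cells (Tregs) carried transcripts of immediate early genes, and the spleens had been broken up without digestive enzymes. These cells were the 94 spleen cells (25.1% of the spleen library, exact Clopper-Pearson 95% interval 20.8 to 29.8) in which at least 2 unique molecular identifiers (UMIs, each standing for 1 captured mRNA molecule) were counted over Nr4a1, Junb, Dusp1, Gadd45b, Tnfaip3 and Cd83 together. They are called selected cells here, and the 74.9% of spleen cells with fewer are the other spleen cells. The series held 1019 cells in all. In the inDrops method used, each cell is enclosed in a droplet and its mRNA receives a barcode of its own.

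The cells came from male B6 mice aged 20 months, with no treatment, transgene or allele named in the labels. Spleens were broken up mechanically, whereas visceral adipose tissue (VAT) was dissociated with collagenase and dispase. Live cells were then sorted by flow cytometry as positive for CD4, for the beta chain of the T cell receptor and for the IL-2 receptor alpha chain CD25, so the sort itself did not use Foxp3, the lineage factor of Tregs. The series title also names Foxp3-negative conventional T cells, and no label says which cell is of which kind, so that not every spleen cell need be a Treg. The spleen gave 1 library and the VAT gave libraries 2 and 3, as the labels number them. The labels name no animal, and for the spleen cells they give the source as spleen but the tissue as spleen and visceral adipose, with a replicate number that differs between fields. Since the spleen is 1 library and cells of 1 library are not replicates, no test was run and no p-value is given. Sums of UMIs are compared as ratios with exact 95% intervals that cover counting error only, and these are too narrow wherever UMIs of a gene gather in a few cells.

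Immediate early genes are switched on within minutes of a receptor signal or of stress, before any new protein is needed. In T cells the antigen receptor and the receptors of the TNF family act through the AP-1, NFAT, CREB and NF-kB transcription factors on these genes, many of which encode further transcription factors or proteins that shut the signal off again. Dissociation of tissue with warm enzymes is also known to switch them on.

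The 6 selecting genes cover several roles of this response. Nr4a1 (chr15:101254269-101274795 in GENCODE annotation of GRCm38, the mm10 build) encodes the nuclear receptor NUR77, a reporter of antigen receptor signals. Junb (chr8:84974484-84978718) is an AP-1 subunit, Dusp1 (chr17:26505590-26562128) a phosphatase that inactivates MAP kinases, and Gadd45b (chr10:80930073-80932204) a stress-induced regulator of MAP kinase signalling. Tnfaip3 (chr10:19000910-19015657) encodes A20, a feedback inhibitor of NF-kB, and Cd83 (chr13:43784775-43803132) a surface protein of activated lymphocytes and dendritic cells. RefSeq promoters (GRCm38.p6) were found for 17 of the 19 genes looked up, which were these 6, Nfkbid and the 12 genes highest in the selected cells. No entry was found for Cd83 or Penk.

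The promoters of Nr4a1, Dusp1, Tnfaip3 and Nfkbia are shown because they illustrate each class of letters found, each promoter as the 250 bases before the annotated start, 5′ to 3′ in the direction of the gene. Capitals mark matches on either strand to TGACG (the CRE core, CGTCA on the other strand, bound by CREB-family factors, which also lies within the whole CRE TGACGTCA), TGANTCA (an AP-1 site) or GGGNNNTTCC (an NF-kB site).
Nr4a1, chr15:101266596-101266845, plus strand: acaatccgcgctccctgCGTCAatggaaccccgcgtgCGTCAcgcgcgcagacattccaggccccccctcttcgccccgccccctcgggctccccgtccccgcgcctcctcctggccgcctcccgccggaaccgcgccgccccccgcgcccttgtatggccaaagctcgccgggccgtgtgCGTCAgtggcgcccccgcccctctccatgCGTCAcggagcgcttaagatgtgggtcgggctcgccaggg
Dusp1, chr17:26508473-26508722, minus strand: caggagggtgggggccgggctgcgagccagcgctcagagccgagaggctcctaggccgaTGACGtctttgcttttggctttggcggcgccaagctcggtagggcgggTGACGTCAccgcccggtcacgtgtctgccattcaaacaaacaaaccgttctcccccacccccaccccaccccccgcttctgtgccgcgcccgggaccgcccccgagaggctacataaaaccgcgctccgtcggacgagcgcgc
Tnfaip3, chr10:19015411-19015660, minus strand: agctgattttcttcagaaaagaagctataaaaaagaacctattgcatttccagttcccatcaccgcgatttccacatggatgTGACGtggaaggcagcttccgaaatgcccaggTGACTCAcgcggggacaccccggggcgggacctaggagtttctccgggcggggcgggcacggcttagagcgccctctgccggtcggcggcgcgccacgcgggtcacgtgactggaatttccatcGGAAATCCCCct
Nfkbia, chr12:55492648-55492897, minus strand: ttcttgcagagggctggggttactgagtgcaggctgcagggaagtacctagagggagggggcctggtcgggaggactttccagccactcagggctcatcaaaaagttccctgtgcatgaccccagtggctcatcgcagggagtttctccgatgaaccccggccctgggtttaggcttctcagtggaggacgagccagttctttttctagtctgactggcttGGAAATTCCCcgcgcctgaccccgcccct

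The Nr4a1 promoter held 4 CRE cores, at -233, -213, -69 and -40 from the start. In Dusp1 a whole CRE began at -143, and in Tnfaip3 a CRE core (-168), an AP-1 match (-136) and an NF-kB match (-12) lay in 1 promoter. The promoter of Nfkbia, which the rule did not use, held an NF-kB match at -29. Among the other genes outside the rule, NF-kB matches lay in a promoter of Nfkbid (-181) and of Tnfrsf9 (-43). CRE cores lay in Nfkbid (with a whole CRE at -51), Atf4 (-12) and Cbx6 (-22), and AP-1 matches in Tnfrsf9 (-15) and Zfp36l1 (-129). None of these letters was found for Cd81, Hspa1b, Ier5, Tnfrsf1b, Tnfrsf4 or Utrn. Among all 32851 RefSeq promoters cut to the same length, 17.8% held a CRE core, 1.55% a whole CRE, 6.75% an AP-1 match and 4.65% an NF-kB match. CRE cores were found in 4 of the 5 selecting genes with a RefSeq promoter (Junb also had 1, at -106) and none of these letters in the single Gadd45b promoter. A match describes letters and is not evidence of a bound factor.

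The values of the 6 genes, which chose the cells and are therefore only described, were spread unevenly. Of the spleen cells, 57.3% had 0 UMIs of the 6 genes, 66 cells (17.6%) had 1, 36 (9.60%) had 2 and 58 had 3 or more. The selected cells held 546 of the 612 UMIs. Their median was 3 and their maximum 45, and the 15 cells with 10 or more UMIs alone held 45.3% of all 612. The threshold therefore cut through a falling distribution and not through a gap, with 66 cells just outside it and 36 just inside. Of the selected cells, 30 had UMIs of a single gene of the 6, 35 of 2 genes, 16 of 3, 7 of 4, 4 of 5 and 2 of all 6.

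**Figure D1:**
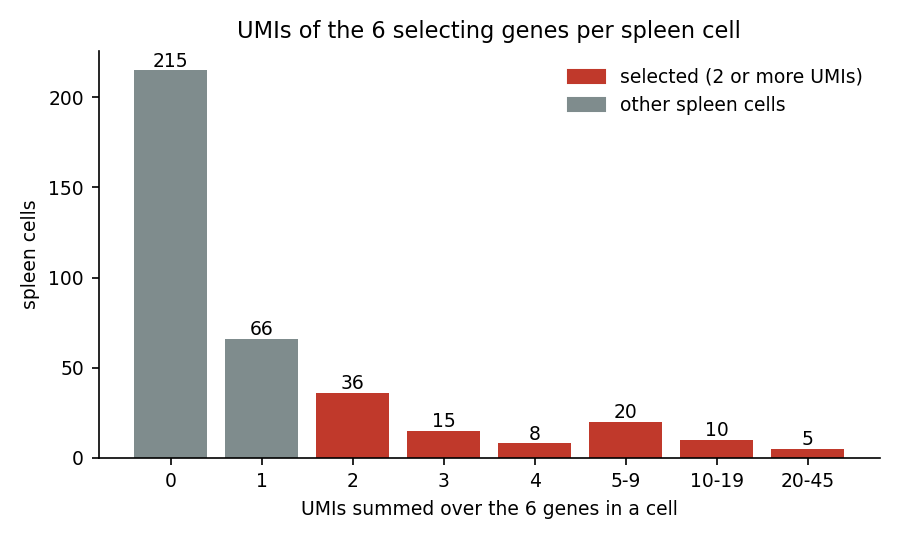
Number of spleen cells (y axis) by UMIs summed over the 6 selecting genes, without thinning (x axis, bins widening to the right), with selected cells in red and the other cells in grey. Counts fall from 57.3% of the cells at 0 UMIs to 66 cells at 1 and 36 at 2, with a tail that reaches 45 UMIs.

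Junb made up the largest part of the signal, with 37 UMIs in the other spleen cells and all the rest, 85.6%, in the selected cells, and a Junb UMI was seen in 70 of the 94. In 18 selected cells Junb was the single gene detected of the 6. Dusp1 had 93 UMIs against 11, Cd83 74 against 5 and Nr4a1 72 against 4. These genes were detected in 31, 36 and 30 selected cells. Tnfaip3 followed with 49 against 5 UMIs, and Gadd45b with 39 against 4, of which 1 cell held 12. Junb was found together with Nr4a1 in 26 cells, with Dusp1 in 24, with Cd83 in 21, with Tnfaip3 in 19 and with Gadd45b in 10, the highest count for each of these genes.

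Whether the genes went together can be read only from a gene that the choice left out, so each was compared between cells chosen by the remaining 5 genes and the rest of the spleen. Dusp1 was then 9.09-fold higher (5.12 to 16.9), Nr4a1 8.40-fold (3.55 to 22.1) and Junb 7.74-fold (5.46 to 11.03). Tnfaip3 was 6.62-fold higher (2.96 to 15.8) and Cd83 4.28-fold (2.19 to 8.41). Gadd45b had 12 UMIs in 92 chosen cells and 1 UMI in the remaining spleen cells, a 36.9-fold ratio with an interval of 5.46 to 1578. Each of the 6 was more abundant in cells that the other genes picked. Since the 6 were chosen with earlier results of these data known, their going together is described here and is no independent support. These 6 ratios rest on each cell being thinned to 800 UMIs, and the deeper cells, which are a little more likely to be chosen, were treated in the same way.

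Set beside the fat, the spleen signal was small. With every whole cell thinned to 800 UMIs, 50 spleen cells (13.3%, interval 10.1 to 17.2) still reached 2 UMIs of the 6 genes, against 97.6% of VAT library 2 and 95.5% of VAT library 3. Without thinning, the rule was met by 98.2% and 98.7% of the VAT cells, whose median sums were 33 and 31 UMIs against 0 in the spleen. Even in the selected cells Nr4a1 reached 3.32 UMIs per 10000 against 42.9 and 32.5 in VAT. Junb reached 15.8 against 73.3 and 66.96, and Gadd45b 1.60 against 23.6 and 26.7. Cd83 was the exception. Its level was 5.05 UMIs per 10000 in the selected cells and 0.0890 in the other spleen cells, and only 9 and 3 UMIs were counted in all cells of the 2 VAT libraries. Spleen and VAT differ in tissue, in digestion and in library, which cannot be told apart here.

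**Figure D2:**
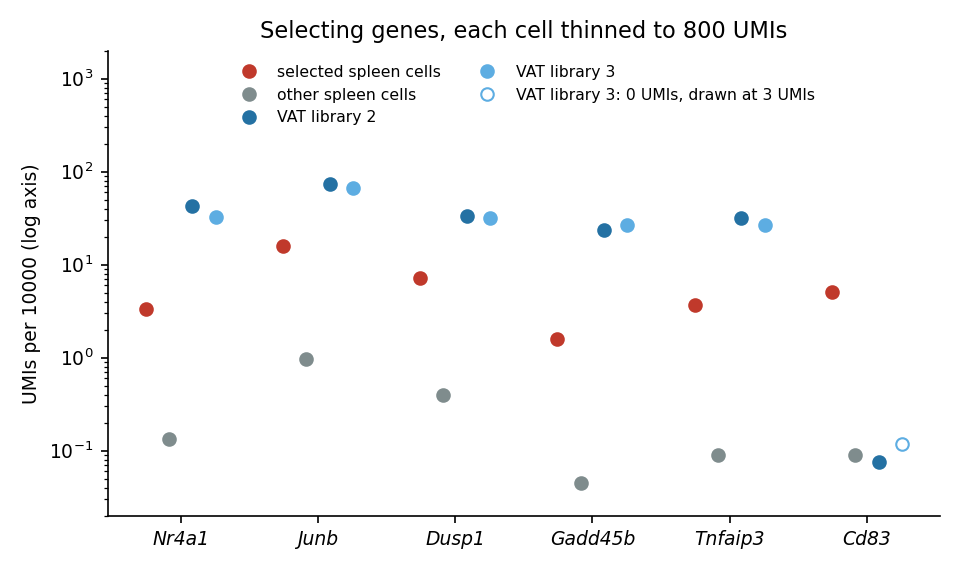
Level of the 6 selecting genes in UMIs per 10000 (log axis) in selected spleen cells, other spleen cells and the 2 VAT libraries, each cell thinned to 800 UMIs, 1 point per group and no error shown. For 5 genes the selected cells lie between the other spleen cells and VAT, and for Cd83 they lie above both, with the open point marking a library with 0 UMIs drawn at 3 UMIs.

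Treg identity genes were present in the selected cells at levels close to those of the other spleen cells, with Ctla4 and Ikzf2 higher. Foxp3 was detected in 32.98% of them and in 35.2% of the other spleen cells without thinning (21.3% and 24.2% at 800 UMIs), and its summed level was 1.09-fold (0.72 to 1.64). Il2ra, which encodes CD25, was at 0.80-fold (0.51 to 1.22) and Izumo1r, the folate receptor 4 of Tregs, at 1.07-fold (0.84 to 1.35). Cd3d was at 0.92-fold (0.61 to 1.35) and Cd4 at 1.31-fold (0.97 to 1.77). These intervals all include 1. Of 13 Treg genes with 20 or more UMIs, Ctla4, an inhibitory receptor, and Itgae, the CD103 integrin, were 2-fold higher. Among all 2400 genes with 20 or more UMIs, 7.25% passed 2-fold upward and 8.38% downward, which is the background for every list count given here. Ctla4 was detected in 34.04% of selected cells and 7.47% of the others without thinning, and was 3.74-fold higher (1.99 to 7.10) after thinning and 4.91-fold (3.0 to 8.18) over all UMIs. Ikzf2, which encodes the Treg factor Helios, was 1.58-fold higher (1.16 to 2.13). Over the whole Treg list the median log2 ratio was 0.23 and the summed ratio 1.18 (1.06 to 1.33).

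Median depth and the share of reads mapped differed little between the groups, but the deeper part of the selected cells reached further. The upper quartile was 1944 UMIs per selected cell and 1696 per other cell, and the median number of genes 695 and 652. The median was 1492 UMIs per selected cell (819 to 4244) and 1418 per other cell (826 to 3178), and the median share of reads mapped was 71.7% and 69.6%. Library 2 and library 3 had medians of 1565 and 1611 UMIs. No barcode of a selected cell occurred in a VAT library, while the spleen as a whole shared 0 and 1 barcodes with them and the VAT libraries shared 2. Since every cell reached 800 UMIs outside the 6 genes, all cells were thinned to that number for the comparisons that follow, and none was left out.

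Some markers of other cell types had no UMI in the spleen and others had a few. Cd79a, Ms4a1 and Pax5 of B cells, Lyz2, Tyrobp and Csf1r of myeloid cells, and Cd8a and Gzma of cytotoxic cells had 0 UMIs in every spleen cell. Among markers with UMIs, Cst3 was at a log2 ratio of 0.90, Cd8b1 and Nkg7 at 0.58 and H2-Aa at -1.005. Of the genes of such lists with 20 or more UMIs, those 2-fold higher in the selected cells were Cd74, Ccl5 and Hba-a2. Cd74, the invariant chain of class II molecules, had 14 UMIs against 19 (2.20-fold, 1.02 to 4.63). The chemokine Ccl5 had 16 against 15 (3.19-fold, 1.48 to 6.92) and the globin Hba-a2 16 against 19 (2.52-fold, 1.21 to 5.17). The summed B cell list had UMIs for 5 of 12 genes and 2.26 against 1.47 UMIs per 10000 (1.54-fold, 0.80 to 2.845), with at most 1 UMI in a selected cell and 3 in another. The myeloid list had 6 of 18 genes and 5.45 against 4.89 (1.11-fold, 0.76 to 1.61), with at most 6 and 4 UMIs in a cell. The list of CD8 and NK cell genes had 3 of 13 genes and 2.79 against 1.11 (2.51-fold, 1.34 to 4.67), with at most 4 and 2 UMIs. Erythroid genes were represented by 4 of 7 and were at 2.93 against 1.56 (1.88-fold, 1.05 to 3.29), with at most 4 and 6 UMIs. Stromal genes were represented by 3 of 10 and were at 0.665 against 0.534, with 4 of the 5 UMIs in 1 selected cell. When the cells with a UMI of Cd79b, Cst3, Fcer1g or Cd8b1 were left out, 78 selected cells remained. A UMI of another gene of these lists, such as Cd74 or Ccl5, did not lead to removal. The summed level of the early response genes described next was then at a log2 ratio of 0.71, against 0.70 over all cells.

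The early response genes that the rule did not use were higher as a group. Their summed level over 46 genes was 79.4 UMIs per 10000 in selected cells and 48.8 in the others, a 1.63-fold ratio (1.47 to 1.80). A selected cell had a median of 6 such UMIs (at most 19) and another cell a median of 4 (at most 18), so single cells of the groups overlapped widely. Among the 21 with a sum of 20 or more UMIs, a ratio of 2 or above was reached by 7 and 1 was 2-fold lower, with a median log2 ratio of 0.77, against 7.25% and 8.38% of all genes with that sum. Of the 848 genes with 50 or more thinned UMIs in the spleen, 19 (2.24%) passed 2-fold upward and 16 (1.89%) passed it downward, with a median log2 ratio of -0.01. With totals taken over genes other than ribosomal proteins the split was 15 and 23, and over all UMIs without thinning it was 13 and 7.

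Among the AP-1 subunits, the transcription factors that dimerise on the TGANTCA site, the summed level was 13.8 against 6.67 UMIs per 10000 (2.07-fold, 1.60 to 2.68), and 2 of 4 genes with 20 or more UMIs passed 2-fold. Jun had 14 UMIs in 11 selected cells and 11 UMIs in 11 of the others, a 3.81-fold ratio (1.61 to 9.26) that was 2.32-fold (1.23 to 4.31) over all UMIs. Atf4, a factor of the amino acid and stress response, had 26 UMIs against 32 (2.43-fold, 1.39 to 4.21). Jund, an abundant subunit, was at 1.70-fold (1.13 to 2.51). Atf3 had 4 UMIs, all in 1 selected cell, and 0 in the other spleen cells. For the Fos side of the dimer few UMIs were counted. Fos had 4 UMIs in the selected cells and 5 in the others. Its log2 ratio was 1.26, with a lowest value of -0.61 under alternative processing. Fosl2 had 1 UMI in the other cells and was higher in the selected cells, at a log2 ratio of 3.58 (lowest 1.59). That ratio rests on 3 UMIs in selected cells with 2 or more selecting genes and 1 UMI in those with 1. Fosb had 0 UMIs in both groups. This allows up to 3 cells with a UMI per group (3.19% of the selected and 1.07% of the other cells), for counting error only. It sets no limit on cells expressing Fosb. In VAT, Fos was at 16.8 and 18.2 UMIs per 10000 and Fosb at 25.3 and 20.8.

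Genes induced by the antigen receptor were higher only slightly as a list, at 16.4 against 12.2 UMIs per 10000 (1.34-fold, 1.08 to 1.67), and none of the 4 genes with 20 or more UMIs passed 2-fold. Ccnd2, a cyclin, was at 0.98-fold (0.69 to 1.38), and Cd5, a receptor that tracks antigen receptor signal strength, at 0.87-fold (0.42 to 1.70). Nfatc1, an NFAT factor, was at 1.54-fold (0.79 to 2.91) and Rgs1, a regulator of chemokine receptor signalling, at 1.49-fold (0.75 to 2.87). Rarer genes of this list had ratios above 1, with wide intervals. Cd69, an early activation antigen that holds cells in tissue, had 9 UMIs against 8 (3.36-fold, 1.15 to 10.02), of which 1 cell held 4. Nr4a2 had 3 UMIs against 1 after thinning (8.97-fold, 0.72 to 470.8), Egr1 3 against 3 (2.99-fold, 0.40 to 22.3) and Egr2 2 against 3 (1.99-fold, 0.17 to 17.4). Over all UMIs Nr4a2 had 8 against 2 (11.04-fold, 2.20 to 106.7), Egr1 8 against 3 (7.36-fold, 1.77 to 43.1) and Egr2 4 against 6 (1.84-fold). Nr4a3 and Egr3 had 0 UMIs in the spleen.

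Feedback phosphatases and RNA decay factors were higher as a list. Of 13 genes with 20 or more UMIs, 5 were 2-fold higher, 1 was 2-fold lower and 11 had a ratio above 1, and the summed level was 49.2 against 29.9 UMIs per 10000 (1.64-fold, 1.44 to 1.87). Dusp2, a nuclear MAP kinase phosphatase, had 24 UMIs against 18 (3.99-fold, 2.07 to 7.79). Zfp36, which encodes the mRNA decay factor tristetraprolin, had 18 against 17 (3.16-fold, 1.54 to 6.54), and its relative Zfp36l1 had 52 against 64 (2.43-fold, 1.65 to 3.56). Zfp36l2, the third of these decay factors, was at 0.60-fold (0.22 to 1.37). Ier5, an early response gene linked to heat shock factor activity, was 2.79-fold higher (1.61 to 4.83), and Ppp1r15a, which restarts translation after stress, 3.65-fold (1.38 to 9.97). The kinase gene Pim1 was at 1.89-fold (1.33 to 2.67), Btg1, an antiproliferative factor, at 1.25-fold (0.96 to 1.61), Btg2 at 1.67-fold (0.80 to 3.35) and Ier2 at 1.68-fold (0.65 to 4.04). Socs3, a feedback inhibitor of cytokine receptors, ran the other way with 2 UMIs in the selected and 30 in the other cells, 5.02-fold lower (1.27 to 43.3), and 3.12-fold lower (1.24 to 10.1) over all UMIs.

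Feedback inhibitors of NF-kB were higher in the selected cells. Nfkbia, which encodes IkBa, the inhibitor that NF-kB itself induces, was detected in 64.9% of selected cells and 30.3% of the others without thinning, and in 43.6% and 22.4% at 800 UMIs. Its 80 against 85 thinned UMIs gave a 2.81-fold ratio (2.05 to 3.86), and all UMIs together gave 3.33-fold (2.65 to 4.20). Nfkbid, which encodes the nuclear inhibitor family member IkBNS needed for Treg development, had 21 UMIs in 14 selected cells and 7 in 7 others, 8.97-fold higher (3.67 to 24.97). Nfkbiz had 5 UMIs in 5 selected cells and 0 in the others, with an exact lower limit of the ratio at 2.74. Over all UMIs it had 9 against 2. Of 8 genes of this list with 20 or more UMIs, 3 were 2-fold higher (Nfkbia, Nfkbid and the survival gene Bcl2a1b) and none was lower. Bcl2a1b was no longer higher, at a log2 ratio of -0.092, when Cd83 was left out of the rule. Among the subunit genes, Nfkb1 was at 1.20-fold (0.67 to 2.05) and Nfkb2 at 1.99-fold (0.88 to 4.37), while Ltb, which encodes lymphotoxin beta and had the most UMIs of the list, was at 0.89-fold (0.68 to 1.16). In VAT, Nfkbia was at 59.9 and 59.8 UMIs per 10000, against 10.6 in the selected and 3.78 in the other spleen cells.

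Receptors of the TNF family and costimulation followed the NF-kB genes, with 4 of 10 genes 2-fold higher, none lower and a summed ratio of 1.74 (1.51 to 2.003). Tnfrsf9, which encodes 4-1BB, had 32 UMIs against 34 (2.81-fold, 1.68 to 4.70) and was detected in 26.6% against 12.8% of cells without thinning. Tnfrsf1b, TNF receptor 2, was 2.55-fold higher (1.499 to 4.31) and Tnfrsf4, OX40, 2.27-fold (1.47 to 3.47). The tetraspanin Cd81 had 28 UMIs against 26 (3.22-fold, 1.82 to 5.72). All 4 kept a ratio above 2 over all UMIs. Icos was at 1.69-fold (1.14 to 2.49) and Tnfrsf18, GITR, at 1.38-fold (0.85 to 2.17), whereas Cd27 was at 1.01-fold (0.64 to 1.55) and Cd28 at 0.65-fold (0.29 to 1.31). For some of these receptors the VAT level was below that of the selected cells. Tnfrsf9 was at 4.26 UMIs per 10000 in the selected cells against 1.86 and 0.279 in the VAT libraries, and Cd81 at 3.72 against 1.63 and 1.08.

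**Figure D3:**
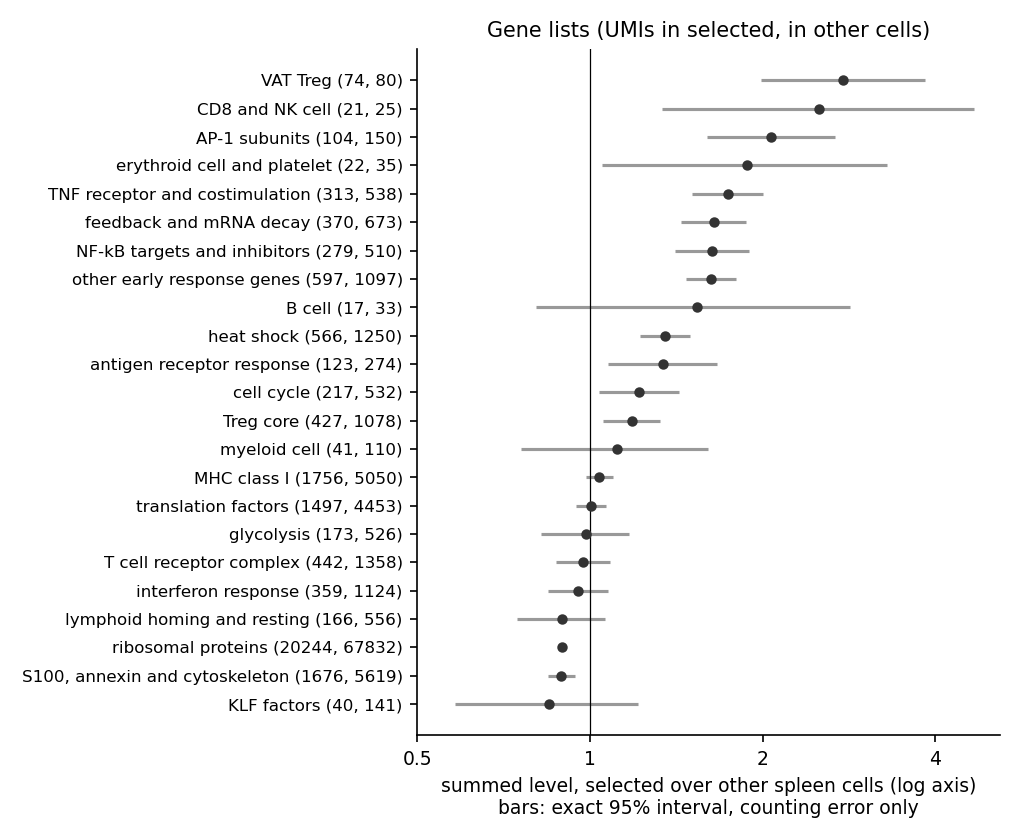
Summed level of each gene list in selected over other spleen cells (log axis), each cell thinned to 800 UMIs, with the UMIs of both groups in brackets and bars giving the exact 95% interval, which covers counting error only. The VAT Treg list (2.77) and the CD8 and NK cell list (2.51) lie highest, both with few UMIs. The early response, NF-kB and TNF receptor lists lie between 1.34 and 2.07, and ribosomal proteins at 0.89.

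The 12 genes with the highest ratio among the 848 were Penk, Cd81, Utrn, Nfkbia, Tnfrsf9, Ier5, Hspa1b, Tnfrsf1b, Cbx6, Zfp36l1, Atf4 and Tnfrsf4. Of the 19 genes past 2-fold, 8 belong to the early response, NF-kB or TNF receptor lists, which hold 21 of the 848 genes. The lists too were chosen with earlier results of these data known, so this count is a description and no independent support. Penk, the enkephalin precursor, led with 46 UMIs in 11 selected cells against 42 in 11 others (3.27-fold, 2.11 to 5.10), and was at 2.19-fold (1.63 to 2.94) over all UMIs. Of the 19 genes, 10 were still past 2-fold over all UMIs. Among those that were not, Utrn, which encodes the cytoskeletal linker utrophin, went from 3.10-fold (1.78 to 5.40) to 1.63-fold (1.07 to 2.46), and Cbx6, a Polycomb subunit, from 2.47-fold (1.38 to 4.40) to 1.66-fold (1.08 to 2.53). Hspa1b, an inducible HSP70 chaperone, was at 2.56-fold (1.81 to 3.61), but 1 selected cell held 26 of its 65 UMIs and the ratio without that cell was 1.55.

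At the other end stood 2010107E04Rik, Cd6, Stk24, H2-T10, Ms4a4b, Gbp2, Smg1, Rnf114, Crlf3, Irf9, Thy1 and Klf2. Only 3 of the 16 genes past 2-fold lower were so over all UMIs, namely 2010107E04Rik, Gbp2 and Thy1. Thy1, the T cell surface protein CD90, had the most UMIs of these genes and was 2.21-fold lower (1.54 to 3.25). Over all UMIs, 76 of which were in selected cells, it was 2.17-fold lower (1.70 to 2.80). Ms4a4b, a membrane protein of T cells, had 24 against 180 UMIs and was 2.51-fold lower (1.63 to 4.02), or 1.69-fold (1.31 to 2.21) over all UMIs. Gbp2, an interferon-induced GTPase, was 2.30-fold lower (1.09 to 5.59), but its log2 ratio was above 0 when 1 UMI of the 6 genes was enough (0.10) and among cells with a Foxp3 UMI (0.45). Its list of interferon response genes was at 0.95-fold (0.85 to 1.08). Cd6, a receptor that modulates antigen receptor signalling, had 6 UMIs against 54 after thinning (3.01-fold lower, 1.30 to 8.56) and was 1.57-fold lower (0.97 to 2.66) over all UMIs. Klf2, a factor of T cell quiescence, had 7 against 46 UMIs, 2.20-fold lower with an interval (0.99 to 5.77) that includes 1.

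**Figure D4:**
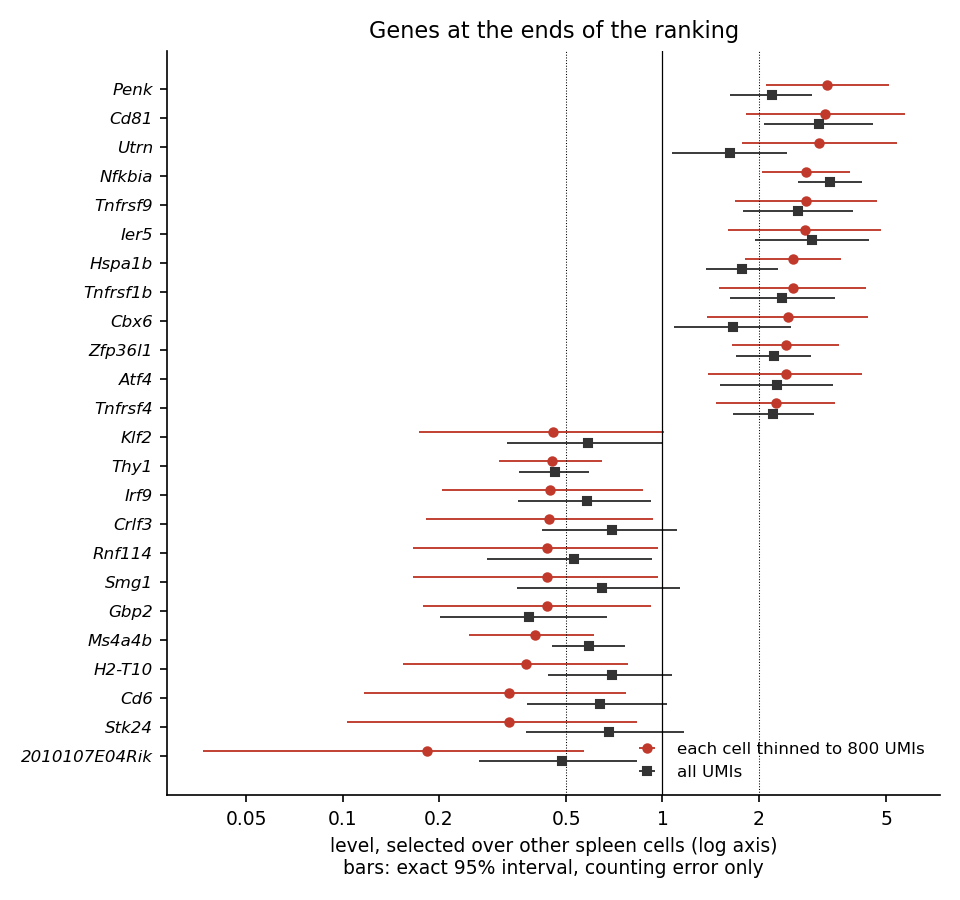
Level in selected over other spleen cells (log axis) for the 12 highest and 12 lowest of 848 genes, from cells thinned to 800 UMIs (red circles) and from all UMIs (black squares), with exact 95% intervals for counting error. Nfkbia, Cd81 and Tnfrsf9 keep their ratio over all UMIs, whereas Utrn, Cbx6 and most of the lowest genes move toward 1.

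The signal grew with the number of UMIs of the 6 genes. Early response genes outside the 6 were at 47.97 UMIs per 10000 in cells with 0 such UMIs, 51.5 with 1, 61.5 with 2, 77.9 with 3 to 9 and 126.7 in the 15 cells with 10 or more (exact Poisson interval 107.3 to 148.5). For these genes the cells just outside the threshold were close to those with none. This was not so for the NF-kB list, at 20.99 (18.9 to 23.3), 28.2 (23.9 to 33.1), 29.5, 36.3 and 57.5 over the same steps, nor for Penk, at 0.64 in cells with 0 and 5.87 in cells with 1, where cells with 1 UMI were near those with 2. Nfkbia went from 3.55 and 4.55 in cells with 0 and 1 to 4.86, 11.9 and 20.8 in the later steps, so that its excess lay in cells with 3 or more. Nfkbid went from 0.291 and 0.379 to 1.74, 1.16 and 10 UMIs per 10000. The 15 highest cells stood apart in further lists. They had 87.5 UMIs per 10000 of Treg genes (71.6 to 105.9) against 47.7 to 51.2 in the other steps, 75 of TNF receptor and costimulation genes (60.3 to 92.2) against 21.8 to 37.5, and 13.3 of lymphoid homing genes (7.62 to 21.7) against 23.6 to 25.1. Without these 15 cells the early response ratio was at log2 0.53, and 14 genes were 2-fold higher and 23 lower.

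**Figure D5:**
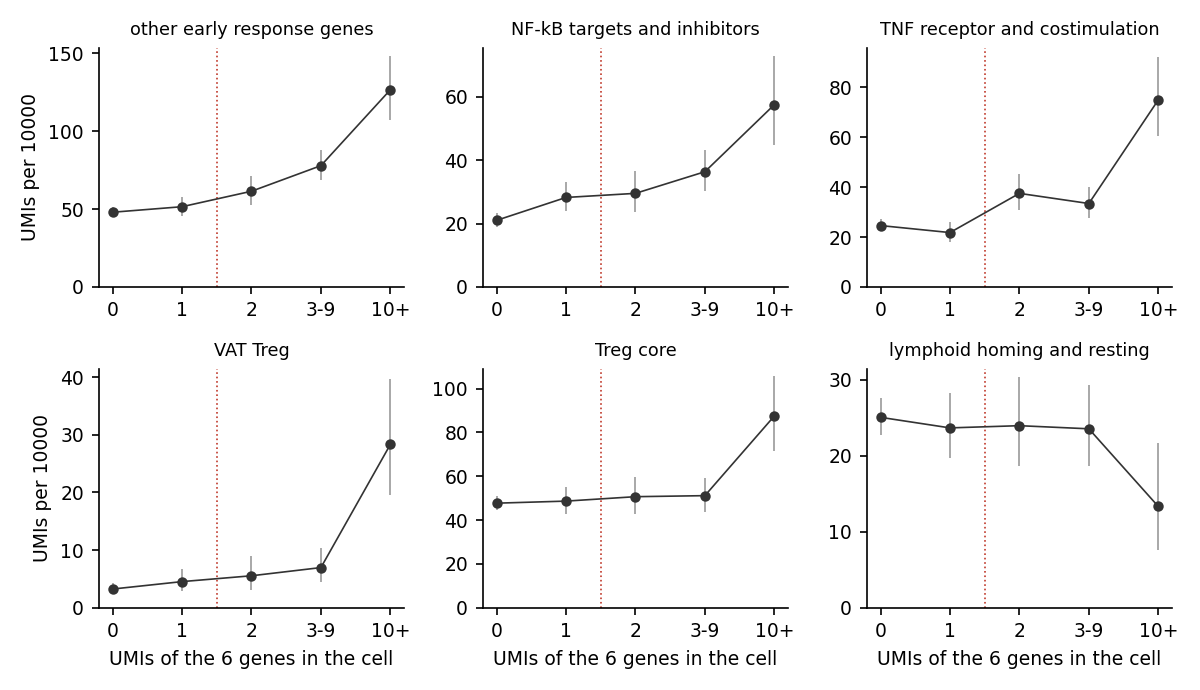
Summed level (UMIs per 10000, y axis from 0) of 6 gene lists in spleen cells grouped by UMIs of the 6 selecting genes (x axis), with exact Poisson 95% intervals and a dotted line at the selection threshold. Early response and NF-kB lists climb from left to right, the Treg list is highest in the 15 cells with 10 or more, and the VAT Treg list goes from 3.26 in cells with 0 to 6.98 with 3 to 9 and 28.3 with 10 or more.

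The selected cells were also divided after their values had been seen. Since the division uses 2 of the selecting genes, and Tnfaip3 is itself a known NF-kB target, it is given as a description and supports nothing. In 51 of the cells Cd83 or Tnfaip3 was detected, and in 43 neither was. Genes of the NF-kB list were at 47.8 UMIs per 10000 (41.3 to 54.99) in the 51 cells but at 24.4 (19.5 to 30.2) in the 43, close to the 22.7 of the unselected cells. TNF receptor and costimulation genes were divided in the same way, at 57.1 (50.01 to 64.9), 23.3 (18.4 to 28.9) and 23.9. Nfkbia was at 16.4, 3.78 and 3.78, Tnfrsf4 at 8.33, 2.03 and 2.40, and Penk at 10.8, 0.581 and 1.87. AP-1 subunits were not divided like this, at 11.3 (8.25 to 15.04) in the 51 cells and 16.9 (12.8 to 21.8) in the 43 against 6.67 in the rest. The 18 cells with Junb as the only gene of the 6 had early response genes at 43.1 (33.01 to 55.2), no higher than the 48.8 of the other spleen cells. Median depth was 1375 UMIs in the 51 cells, 1688 in the 43 and 1768 in the 18.

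Leaving Cd83 out of the rule and choosing the cells by the other 5 genes lowered the ratio of the receptor genes and left that of the early response genes near its value. The TNF receptor and costimulation list was then at a log2 ratio of 0.41, against 0.80 with all 6, while the early response list was at 0.72 against 0.70.

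Transcripts known for Tregs of visceral fat were more frequent in the selected cells but came from few of them. The list of 15 genes had 74 UMIs against 80, a 2.77-fold ratio (1.99 to 3.84), at 9.84 UMIs per 10000 against 130.7 and 124.2 in the VAT libraries. Klrg1, an inhibitory receptor, had 20 UMIs in 6 selected cells against 7 UMIs in 4 others, with 8 in 1 cell. Areg, which encodes the tissue repair factor amphiregulin, had 10 UMIs in 4 selected cells and 0 in the others, with an exact lower limit of the ratio at 6.70. Gata3, the factor of type 2 lymphocytes, had the most cells and was at 1.24-fold (0.68 to 2.15). When cells with a UMI of the list other than Gata3 were left out, only Gata3 UMIs could remain in the list. The log2 ratio of 0.01 found then is that of Gata3 alone and says nothing of the other genes. The early response list was at 0.63 in this setting, with 72 selected cells remaining.

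Genes of resting and recirculating cells went in both directions, 1 of 11 passing 2-fold upward and 2 downward, against 7.25% and 8.38% of all genes with 20 or more UMIs. The lymphoid homing list was at 0.89-fold (0.75 to 1.06), with Foxo1, a quiescence factor, at 0.87-fold (0.57 to 1.30). Ccr7, the homing receptor for lymph nodes, was 2.31-fold higher (1.15 to 4.56) with 17 UMIs against 22, whereas Cxcr5, the receptor for B cell follicles, had 3 UMIs against 27. Chaperones were at 1.35-fold (1.22 to 1.496), with Hspa8 at 1.42-fold (1.18 to 1.71), and 1 selected cell held 49 of the 566 UMIs. Without it the ratio was 1.25. Ribosomal protein mRNA was lower, at 2692 against 3017 UMIs per 10000 (0.89-fold, 0.88 to 0.91), with 12 of 82 genes above 1, and it was lowest, at 2174, in the 15 cells with the most UMIs of the 6 genes. Actin and cytoskeletal genes together with S100 genes were at 0.89-fold (0.84 to 0.94), led by Tmsb4x at 0.79-fold (0.71 to 0.89). Genes of the T cell receptor complex were at 0.97-fold (0.87 to 1.08), of MHC class I at 1.04-fold (0.98 to 1.10), of translation factors at 1.005-fold (0.95 to 1.07) and of glycolysis at 0.98-fold (0.82 to 1.17).

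Clustering the spleen cells on genes other than the 6 gave 10 clusters, and selected cells were found in every one, at 5.88% to 44.7% of its cells. They made up 17 of 38 cells (44.7%, 28.6 to 61.7) in cluster 8, led by Pcna, Pgk1 and Rap1gds1, and 23 of 55 (41.8%, 28.7 to 55.9) in cluster 4, led by Penk, Zc3h15 and S100a6 with Icos and Tnfrsf1b among its first 8 genes. In cluster 1, the largest, led by Igtp, they made up 11 of 58 (18.97%, 9.87 to 31.4). Cluster 8 was also the deepest, with a median of 1668 UMIs per cell, and the part of depth in its share was not tested. The 6 genes thus marked no single cluster.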

How the data were processed

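Values are UMI counts per gene and cell, as the authors deposited them, with no normalization. Per the submitters' processing notes, TopHat2, SAMtools and the mm10 build were used, with no versions given. The table held 23725 genes and 1019 cells (spleen 375, VAT 330 and 314), and each column was assigned to a group by its title. Members and gene lists were chosen with earlier results of these data known. No doublet caller was run. Instead, the 5% of cells with the most UMIs were left out as an alternative.

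Each cell was thinned at random (seed 1) to 800 UMIs outside the 6 selecting genes, and levels are UMIs per 10000 thinned UMIs. Genes with 50 or more thinned UMIs in the spleen were ranked by the ratio of summed UMIs, and genes of a list were counted from 20. A gene was called at 2-fold. Ratio intervals are exact conditional binomial, shares Clopper-Pearson and levels Poisson, all at 95% and for counting error only. No share in a cell type that lacks a gene was measured, so free RNA was not estimated. A 25-list set was used, 1 list being the selecting genes and 1 (mitochondrial genome) having no gene in the table. Genes named are the 6, the 12 highest and 12 lowest by ratio, up to 4 of each list by abundance and 34 chosen in advance, and further list members are named after their values were seen. Clusters came from Leiden clustering (scanpy 1.11.5, leidenalg 0.10.2) of 2000 variable genes, 20 components and 15 neighbours, at resolution 1. Counting used Python 3.11.15 with numpy 2.4.6, pandas 2.3.3 and scipy 1.17.1. The thinning and ratios were tested on simulated counts. Positions are from GENCODE GRCm38, matched for 22820 symbols. Alternatives were other thinning, rules, filters and totals, and cells left out.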

Additional observations from a re-analysis of the deposited data

How the results depend on the processing

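The summed level of other early response genes kept its direction under all 21 alternatives, at log2 ratios from 0.50 to 1.003 against 0.70. This level lay within the main interval for counting error under 14 alternatives and outside it under 7, the second thinning seed among them. It was at 0.85 with a second thinning seed, 0.50 for 1 or more and 0.85 for 3 or more UMIs of the 6 genes, 0.96 with the rule on thinned cells, 0.87 for 2 or more different genes, 1.003 in cells with a Foxp3 UMI and 0.53 without the cells with 10 or more. Of the genes tested, 2.24% (19 of 848) were 2-fold higher. The share was 1.42% (12 genes) by each cell's share, 1.18% (10) with weighted cells, 5.20% (44) with the rule on thinned cells, 4.25% (36) without Junb and 1.42% (12) without Cd83 in the rule, 1.98% (5 genes) in Foxp3 cells, 7.25% of 2400 genes and 0.824% (3 genes) at minimums of 20 and 100 UMIs, and 8.96% (76) at 1.5-fold. The share 2-fold lower was 1.89% (16 genes). It was 0.826% (7) with pooled UMIs, 1.18% (10) by each cell's share, 0.708% (6) with weighted cells, 0.943% (8) and 5.43% (46) for 1 or more and 3 or more UMIs, 5.56% (47) with the rule on thinned cells, 5.43% (46) without Junb, 3.18% (27) without Dusp1 and 2.95% (25) without Cd83 in the rule, 4.72% (40) for 2 or more different genes, 2.999% (23) with totals without ribosomal protein genes, 3.97% (10) in Foxp3 cells, 8.38% of 2400 genes and 1.10% (4 genes) at minimums of 20 and 100 UMIs, 8.49% (72) at 1.5-fold and 2.85% (23) without the cells with 10 or more UMIs. A lower minimum admits genes with fewer UMIs, and the cause of the other shifts was not tested.

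A direction was counted as turned only where the main interval left out equal levels. By this count directions turned for the cell cycle list (-0.16 in Foxp3 cells), the erythroid list (-0.10) and Hba-a2 (-0.46) with the rule on thinned cells, Bcl2a1b (-0.092 without Cd83 in the rule), Hspa1b (-0.14 without Dusp1 in the rule), Gbp2 (0.10 for 1 or more UMIs, 0.45 in Foxp3 cells) and Smg1 (0.27 for 1 or more UMIs). Further results, whose main interval included equal levels, also changed sign under some alternative and are not in this count. Examples are Fos (main log2 ratio 1.26, lowest -0.61), Klf2 (main -1.14, highest 0.18) and the KLF list (main -0.24, highest 0.59). Over the named genes, 2332 of 2441 alternative values lay within counting error of the main value, and over 23 lists 47 of 482 lay outside it and 2 turned. No paired analysis was possible because a single spleen library has no partner. Depth limits genes with few UMIs: 0 UMIs allow up to 3 selected cells (3.19%) with a UMI at this depth, and set no limit on cells expressing the gene.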
